A study of Mus musculus with 81 samples.

Results

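The lysosomal genes described here are 39 mouse genes taken by symbol from a list of cathepsins and other lysosomal proteases, glycosidases, lipid-handling proteins, membrane proteins, progranulin and the MiT/TFE transcription factors, out of 54079 genes listed in every experiment. Read counts per gene were compared between WT and H3.3cKO macrophages. All mice were C57BL/6 carrying floxed alleles of both histone H3.3 genes (H3f3a fl/fl:H3f3b fl/fl). WT mice carried these alleles alone, and cKO mice carried LysM cre/cre as well, in which Cre is read from both copies of Lyz2, a gene of the myeloid lineage. Mice were adults of both sexes according to the study's methods. Bone marrow-derived macrophages (BMDMs), grown with macrophage colony-stimulating factor, were taken on days 3, 5 and 7, or on day 8 with or without 12 h of interferon gamma (IFNg). Others were grown in 3 arms, namely no antibody, an isotype control antibody, or an antibody against the interferon receptor chain IFNAR1. WT and cKO BMDMs were also sequenced in 3 sets next to double knockouts, which were cKO cells that also lacked Sting, Mavs or Irf7 in the germline. By the study's methods, the Sting, Mavs and Irf7 lines were all made with 129-derived as well as B6 material. Peritoneal macrophages came straight from WT and cKO mice and were amplified with a different library kit. Of 81 libraries, 79 were placed in 27 groups, 25 groups with 3 libraries and 2 with 2. The other 2 libraries had titles that contradicted their library names.

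Lysosomes are acidic organelles in which macrophages break down what they take up. Cathepsins are their proteases, glycosidases and sulfatases remove sugars and sulfate from glycans, and Npc1, Npc2, Lipa, Psap, Ppt1, Asah1 and Smpd1 serve cholesterol and sphingolipid turnover or lipid release. Lamp1, Lamp2, Cd63 and Cd68 sit in the lysosomal membrane, Mcoln1 is its calcium channel, and Cln3 and Laptm5 are further membrane proteins. TFEB, TFE3 and MITF bind E-box sequences near many genes of this organelle and raise their transcription, and mTORC1 on the lysosomal surface keeps them out of the nucleus. Cathepsin S trims the invariant chain for antigen presentation, and cathepsin C activates granule proteases. Interferons are known to act on several of these genes.

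The promoters were compared because the MiT/TFE factors bind E-box sequences near many lysosomal genes. RefSeq promoters of build GRCm38.p6, running from 250 bases before to 50 bases after the gene start, matched 35 of the 39 members. The letters CACGTG, which read the same on both strands, were found in 12 of the 35 members (34.3%), namely Ctsa, Ctsd, Ctsf, Ctsl, Gla, Glb1, Naglu, Sgsh, Gaa, Lamp1, Cln3 and Mcoln1, and in 8.09% of 27025 genes. The longer TCACGTG, searched on both strands and always overlapping CACGTG, was in 10 of 35 members (28.6%) and in 4.29% of all genes. Of 2 elements associated with interferon responses, searched on both strands after the values were seen, the core of the interferon-stimulated response element (GAAA repeated after a gap of 2 bases) was in Ctso, Ctss and Lamp1 (8.57% of members, 3.99% of all genes). The gamma-activated element (TTC and GAAA with a gap of 3 bases) was in Ctsc alone (2.86% of members, 4.91% of all genes). The 2 members that moved in 8 and 9 of 26 comparisons and hold one kind of motif each are shown with the 250 bases before their start, in gene orientation. Ctsz (called in 9 comparisons) and Ctsk (7) hold none of these motifs there and are not shown. Ctsh, called most often (10), had no promoter entry. Sgsh, at chr11:119355511-119355760 on the minus strand, holds the E-box in the form CACGTGA (capitals) from base -29. Ctss, at chr3:95526536-95526785 on the plus strand, holds the response element core (capitals) from base -21.
Sgsh: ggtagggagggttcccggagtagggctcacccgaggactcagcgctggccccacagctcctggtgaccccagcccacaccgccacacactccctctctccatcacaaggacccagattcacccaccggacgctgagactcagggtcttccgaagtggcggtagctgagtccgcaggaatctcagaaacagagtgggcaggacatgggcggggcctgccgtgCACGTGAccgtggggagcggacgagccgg
Ctss: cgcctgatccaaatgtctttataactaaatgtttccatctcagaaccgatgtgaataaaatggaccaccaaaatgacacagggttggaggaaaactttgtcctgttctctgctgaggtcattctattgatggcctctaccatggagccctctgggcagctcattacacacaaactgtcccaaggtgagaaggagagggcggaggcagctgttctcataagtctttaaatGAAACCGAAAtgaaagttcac
A match of letters is a description of the window and not a measured binding site.

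All 39 members were expressed in BMDMs. Their levels in CPM, which are read counts scaled to a common library total by the trimmed mean of M-values, summed to between 2.82% of the library in WT BMDMs on day 5 and 5.40% in cKO BMDMs after IFNg. Per kilobase of gene model, the highest mean levels in WT BMDMs on day 7 belonged to Psap (2331 CPM per kb), Ctsb (1648), Ctsd (1196), Ctss (925), Cd68 (743) and Grn (700). The lowest belonged to Ctsf (2.54) and Ctsk (1.48). In WT peritoneal macrophages, on the same per-length scale, Ctss (1721) and Laptm5 (1526) stood first, and Ctsk was near 0 (0.0458).

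Libraries matched their labels with a few limits. H3f3a was at 33.6 to 93.8 CPM in WT and 1.21 to 15.3 in cKO libraries. H3f3b depended on the experiment. In the antibody experiment it was at 295 to 468 CPM in WT and 16.7 to 67.8 in cKO, while in the others it was at 181 to 536 in WT and 149 to 361 in cKO. It was at 71.9 to 147 CPM in the Irf7 double knockout and 181 to 220 in the other double knockouts. Lyz2 was at 4470 CPM or more in WT and at most 81.9 in cKO. In double knockouts, Sting (Tmem173) was at 5.01 to 6.10 CPM against 68.2 to 91.6 in the cKO sets, Irf7 at 98.3 to 112 against 249 to 470, and Mavs at 37.2 to 37.9 against 36.0 to 51.6, so the level of Mavs did not mark its knockout. All 8 macrophage markers exceeded 1 CPM in every group, and peritoneal macrophage markers summed to 26670 CPM or more in peritoneal libraries and at most 53.9 in BMDM groups. Counts on genes were 14419697 to 20220329 in the time course, 3614967 to 9879339 on day 8, and 7625225 to 23381318 for peritoneal cells. The antibody libraries held 5295144 to 34380735 such counts, and those of the sets and double knockouts 21504555 to 45581528. The test throughout is the quasi-likelihood test of edgeR, adjusted by Benjamini-Hochberg over all genes tested. A gene is called when its adjusted p is under 0.05, and log2 fold changes are given with their standard error.

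No lysosomal gene was called the same way throughout the comparisons of cKO with WT. Over 9 of them that had no IFNg and no antibody, none of the 39 members was called in one direction in 5 or more, the most for any member was 3, and 8 members were called in none. Grn, which encodes progranulin, a chaperone-like precursor in the lysosome, had a higher mean in cKO in 9 of 9, with log2 differences from 0.02 to 0.48, and was called in 2. Ctsf, a minor cysteine cathepsin, and Asah1, the acid ceramidase, had lower means in 9 of 9, from -2.02 to -0.09 and from -0.53 to -0.10, and each was called in 3. These 3 genes were picked after their values were seen. The share of all genes with such calls, or with one sign in all 9, was not computed. These counts therefore do not set the members apart from other genes. The 3 days of the time course come from one experiment and its groups share one fit.

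**Figure D1:**
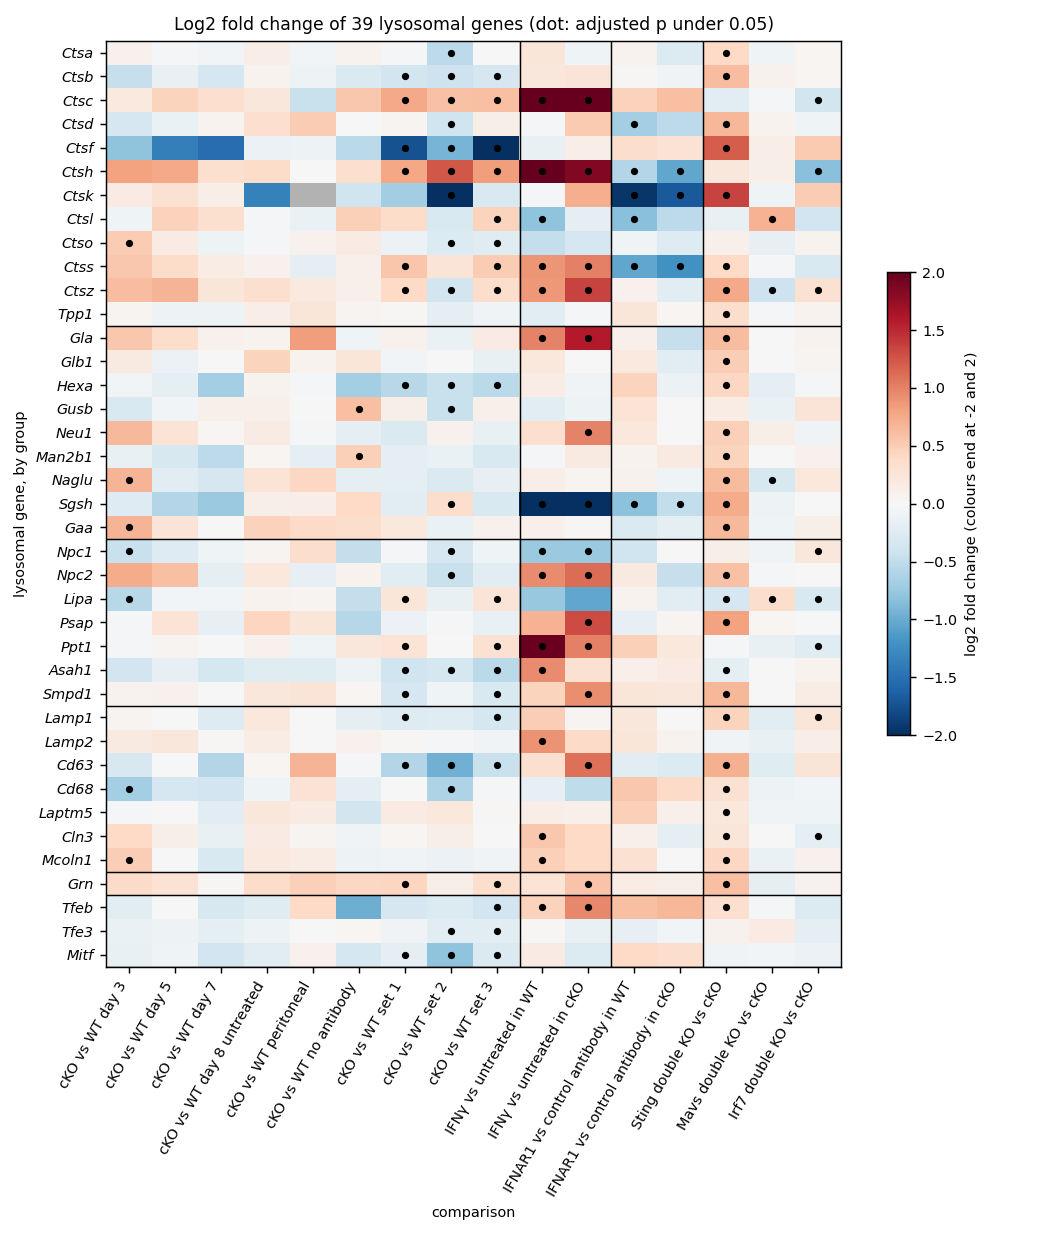
Log2 fold change of each of the 39 lysosomal genes (rows) in 16 comparisons (columns), with dots on called values and grey for Ctsk in peritoneal macrophages, where it was too low to test. IFNg moves Ctsc, Ctsh, Ppt1 and Sgsh by more than any cKO column does, and the column of the Sting double knockout is mostly one colour, with 27 members higher.

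On day 3, 4 of 39 members were higher and 3 lower in cKO, where 8.65% of 15955 genes were called. Naglu, which removes N-acetylglucosamine from heparan sulfate, was at 56.7, 47.0 and 56.0 CPM in WT and at 83.7, 84.2 and 86.8 in cKO. The cKO libraries lay together above all WT libraries (log2 0.67 ± 0.15, adjusted p = 0.011). Gaa, the acid glucosidase that digests glycogen, was at 114, 87.9 and 86.9 CPM in WT and 167, 145 and 151 in cKO (log2 0.68 ± 0.18, adjusted p = 0.0246). The calcium channel Mcoln1 (log2 0.49) and the cathepsin Ctso (0.51) were the other members called higher. Of the 7 lipid-handling members, 2 were called lower and 0 higher. Npc2 was not called, although it was above WT in each cKO library (806, 706 and 714 CPM against 525, 383 and 420). Npc1, which exports cholesterol from the lysosome, was at 376, 323 and 365 CPM in WT and at 238, 269 and 272 in cKO (log2 -0.45 ± 0.11, adjusted p = 0.0129). Lipa, the acid lipase that frees that cholesterol, was at 1366, 1129 and 1322 CPM in WT and at 741, 891 and 954 in cKO (log2 -0.56 ± 0.14, adjusted p = 0.0222). The macrophage membrane protein Cd68 fell by 0.68 on the log2 scale. In these 7 members no cKO library overlapped a WT library. The same held for members that were not called, such as Ctsh, Neu1, Ctss and Ctsz, so lack of overlap did not set the 7 apart. With the replicate number as a block, 11 members were called, 8 higher and 3 lower, among them all 7. Leaving out 1 library left 1 to 4 calls. Markers of other cells were also read on day 3. The 12 neutrophil markers summed to 3140 to 4759 CPM in cKO and 1972 to 3613 in WT, ranges that overlap. Of 7 tested B cell markers 6 were higher in cKO, with a sum of 66.3 to 112 CPM against 33.7 to 44.0. Their part in these results was not tested. In bulk RNA, fewer cells of a type and less RNA per cell cannot be told apart.

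On days 5 and 7 no member was called, where 3.12% and 1.82% of genes were. At an unadjusted p under 0.05 there were 6 members on day 5 and 9 on day 7, beside 2241 and 2653 of 15955 genes. DESeq2 called 1 member on day 5 and 4 on day 7. Ctsh, an aminopeptidase among the cathepsins, was above WT in every cKO library on day 3 (225, 189 and 196 CPM against 127, 109 and 113) and on day 5 (174, 134 and 147 against 67.0, 97.8 and 103). The values overlapped on day 7, and none of the 3 differences passed the test (adjusted p = 0.133, 0.257 and 0.635). On day 7 Ctsf was at 4.24, 4.51 and 4.41 CPM in cKO and at 5.27, 25.5 and 7.55 in WT (adjusted p = 0.0768), with WT replicate 2 far above the other libraries. Without WT replicate 1, 4 members were called on day 7, and without replicate 3, 2.

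From day 3 to day 7, 12 members rose and 2 fell in WT, where 24.5% of genes were called, and 3 rose and 2 fell in cKO, where 14.7% were. Naglu rose in WT from 53.3 to 125 CPM (log2 1.23 ± 0.15, adjusted p = 0.000101), and Sgsh, the sulfatase that acts in the same pathway, from 37.4 to 83.5 (log2 1.16 ± 0.23, adjusted p = 0.00245). Hexa (log2 0.92), Ctsf (1.90), Man2b1 (0.86), Ctso (0.74), Grn (0.70), Laptm5 (0.62), Mcoln1 (0.49) and the factor Mitf (0.45) also rose in WT. WT day 7 replicate 2 stood highest, with 129 CPM of Sgsh against 49.8 and 72.2 and 1120 of Hexa against 564 and 574. Lamp2, a membrane protein needed for autophagy, rose in both genotypes, from 421, 349 and 341 CPM to 550, 703 and 574 in WT and from 407, 373 and 476 to 599, 588 and 662 in cKO. Asah1 rose in both as well, by log2 0.68 and 0.70. Ctsk, the collagen-degrading cathepsin of osteoclasts, fell from 20.0, 12.4 and 38.8 CPM to 4.80, 1.05 and 0.879 in WT and from 28.0, 25.8 and 26.5 to 5.53, 1.46 and 0.629 in cKO. On day 7 replicate 1 of either genotype kept the most Ctsk and also the most Ctsl, with 1598 CPM against 522 and 487 in WT and 1928 against 670 and 665 in cKO. Cd68 rose and Neu1, the sialidase, fell in cKO, where 2 members were called without cKO day 3 replicate 1 or 2 or cKO day 7 replicate 3, and 8 without cKO day 7 replicate 1. The change over time was not shown to differ between genotypes: 0 members and 0.0439% of genes passed the test of the difference. At an unadjusted p under 0.05 there were 11 members, beside 2491 of 15955 genes. DESeq2 called 3 members, and Naglu was nearest in the main test (adjusted p = 0.0644). Without WT day 7 replicate 1 or 3, 2 members passed that test.

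On day 8 without IFNg, no member was called between cKO and WT, where 0.658% of 13075 genes were. At an unadjusted p under 0.05 there were 4 members, beside 792 of 13075 genes, and DESeq2 called 0 members. After 12 h of IFNg, 12 members rose and 3 fell in WT (38.9% of genes called), and 13 rose and 2 fell in cKO (33.9%). In cKO, 0 members were called with the 2 libraries of contradicting labels placed by their titles, 18 with them placed by their library names, and 2 when only the groups compared were fitted. Ctsc stood at 238, 213 and 206 CPM in untreated WT and at 1816, 1941 and 1740 with IFNg (log2 3.07 ± 0.34, adjusted p = 9.03e-05). In cKO it went from 256 and 259 to 532 and 1651 CPM (log2 2.09 ± 0.40, adjusted p = 0.0033). Ctsh rose from 88.1, 105 and 95.3 to 461, 419 and 495 CPM in WT, and from 115 and 133 to 296 and 602 in cKO. Ppt1, which removes fatty acids from proteins, rose from 104, 114 and 105 to 386, 464 and 418 CPM in WT (log2 1.97 ± 0.20), and from 113 and 117 to 162 and 296 in cKO (adjusted p = 0.0102). The treated and untreated libraries did not overlap for any of the 3 genes.

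Sgsh fell after IFNg in both genotypes. It was at 44.9, 54.2 and 45.1 CPM in untreated WT and at 8.36, 4.17 and 5.90 with IFNg (log2 -2.96 ± 0.23, adjusted p = 1e-05). In cKO it was at 52.3 and 52.2 CPM untreated and 8.45 and 9.78 treated (log2 -2.50 ± 0.29, adjusted p = 0.000169). Sgsh shares exonic bases with Card14, and reads there were counted for neither gene. The 10 members called in both genotypes were Ctsc, Ctsh, Ctss, Ctsz, Gla, Npc2, Ppt1 and Tfeb, which rose, and Sgsh and Npc1, which fell. The share of all genes called in both was not computed, so this overlap is not read as particular to the members. Ctss rose from 1430, 1928 and 1694 CPM to 2862, 3099 and 3315 in WT (log2 0.88 ± 0.18), and Gla, the alpha-galactosidase, from 114, 150 and 135 to 276, 247 and 270 (log2 0.99 ± 0.13). Npc1 fell by 0.74 on the log2 scale while its partner Npc2 rose by log2 0.94 in WT, so the pair of cholesterol transporters moved in opposite directions. Tfeb rose from 30.4, 38.9 and 33.9 CPM to 49.0, 43.6 and 48.7 in WT (log2 0.45 ± 0.14, adjusted p = 0.0249, and 0.0532 with the replicate number as a block). Asah1, Cln3, Lamp2 and Mcoln1 were called higher and Ctsl lower in WT alone, and Cd63, Grn, Neu1, Psap and Smpd1 higher in cKO alone.

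**Figure D2:**
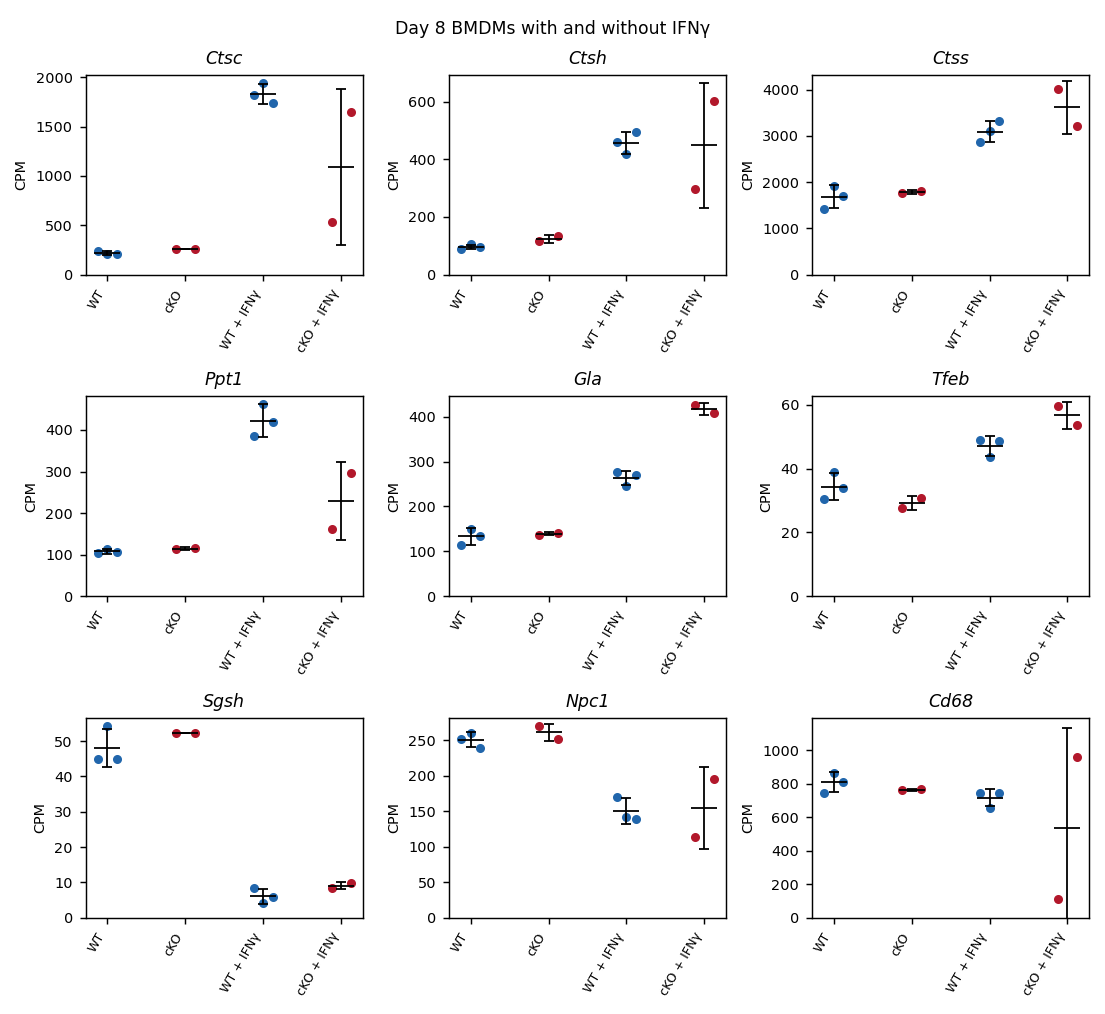
CPM (vertical axes, one panel per gene) of 9 members in each day 8 library, WT and cKO, without and with IFNg, with bars for the mean ± SD. Ctsc, Ctsh and Ppt1 rise and Sgsh falls with no overlap in either genotype, and 1 cKO library with IFNg lies apart for Ctsc (532 CPM against 1651) and Cd68 (112 against 959).

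The 2 cKO libraries with IFNg did not resemble each other. Replicate 1 had 3614967 counts and 57.1% unmapped reads. Its Cd68 was at 112 CPM where replicate 2 had 959 and WT with IFNg 658 to 747. Psap was at 20860 CPM against 10860, Cd63 at 1322 against 550, and Lamp2 at 524 against 1313. Between cKO and WT with IFNg, Gla, Grn and Ctsz were called higher and none lower (5.45% of genes called). Without any one of the 3 WT libraries, 0 members were called. Leaving out a cKO library changed the count as well. It leaves 1 library in that group, so counts from such fits are not given. The change with IFNg was not shown to differ between genotypes, with 0 members and 0% of genes called, and Ppt1 nearest (adjusted p = 0.478). At an unadjusted p under 0.05 there were 3 members in that test, beside 1205 of 13075 genes, and DESeq2 called 0 members. The outcomes of that test and of IFNg within cKO changed when treated cKO replicate 2 was left out. Both rest on which library is kept.

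Peritoneal macrophages showed no called member. Of the 38 members that could be tested, 0 passed between cKO and WT, where 1.06% of 12361 genes did. At an unadjusted p under 0.05 there were 7 members, beside 1189 of the 12361 genes, and DESeq2 called 1 member. The 2 smallest p belonged to Gla, at 12.4 to 18.4 CPM in WT and 22.6 to 32.2 in cKO (log2 0.84 ± 0.22, adjusted p = 0.173), and Cd63, at 39.7, 29.4 and 36.7 against 45.3, 63.5 and 61.0 (log2 0.68 ± 0.20, adjusted p = 0.226). In both genes each cKO library was above each WT library. Ctsc pointed the other way from BMDMs, with 741, 955 and 928 CPM in cKO and 1033, 1380 and 1163 in WT (log2 -0.45 ± 0.18, adjusted p = 0.44). Ctsh overlapped, with 474 to 739 CPM in cKO and 525 to 719 in WT.

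The antibody experiment gave few differences by genotype. Without antibody, Gusb, the beta-glucuronidase, was at 293, 255 and 233 CPM in WT and 394, 405 and 384 in cKO (log2 0.60 ± 0.13, adjusted p = 0.0138). Man2b1, the acid mannosidase, was the other member called, at 440, 493 and 430 CPM in WT and 558, 675 and 659 in cKO (adjusted p = 0.041), where 8.16% of 17191 genes were called. With control antibody Gusb alone was called (adjusted p = 0.0497, 5.11% of genes), and with IFNAR1 antibody none was (0.698% of genes). Leaving out any one library with control antibody ended the call of Gusb in that arm. Without antibody, leaving out WT replicate 1 gave 8 calls and leaving out any other library 0 or 1.

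Ctsh, Ctsk, Ctss and Sgsh were called lower with IFNAR1 antibody than with control antibody in both genotypes. Against the control antibody, 6 members were lower and 0 higher in WT (11.2% of genes called), and 4 were lower and 0 higher in cKO (4.68%), all 4 among the 6. The share of all genes called in both genotypes was not computed here either. Ctss was at 3100, 3168 and 2605 CPM with control antibody and at 1050, 1704 and 1555 with IFNAR1 antibody in WT (log2 -1.04 ± 0.17, adjusted p = 0.00294), and at 2144, 2731 and 2540 against 1123, 1048 and 1046 in cKO (log2 -1.21 ± 0.17, adjusted p = 0.00249). Ctsh fell by 0.59 in WT and by 1.04 in cKO on the log2 scale, Ctsk by 1.94 and 1.69, and Sgsh by 0.82 and 0.50. Ctsl (log2 -0.84) and Ctsd (-0.69) were called in WT alone. The test of a difference between genotypes called 0 members and 0% of genes. At an unadjusted p under 0.05 there were 0 members, beside 991 of 17191 genes. Without WT replicate 3 of the IFNAR1 arm, 16 members were called in WT, and without WT replicate 1 of that arm, or WT replicate 2 or 3 of the control arm, 3. In cKO, 2 were called without replicate 2 or 3 of the control arm or replicate 1 or 2 of the IFNAR1 arm.

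Control antibody was also compared with no antibody, a comparison added after the values were seen that shares its control libraries with the one above. In WT, Ctss, Ctsh, Ctsk, Sgsh, Ctsl and Ctsd were higher with control antibody than with none, and no member was lower (9.73% of genes called). Ctss was at 1294, 1546 and 1215 CPM without antibody, below each of the 3 libraries with control antibody (log2 1.13 ± 0.17, adjusted p = 0.00268). Ctsk was at 4.85, 4.99 and 4.96 CPM without antibody, 22.1, 21.7 and 21.1 with control antibody and 3.50, 3.45 and 9.85 with IFNAR1 antibody. IFNAR1 antibody was not tested against no antibody. Mean Ctss was 1437 CPM with IFNAR1 antibody and 1352 with none in WT, and 1072 and 1454.5 in cKO. Mean Ctsh was 154 CPM with IFNAR1 antibody and 130 with none in WT, and 131 and 163 in cKO. In cKO, Ctss and Ctsh were called higher with control antibody than with none (log2 0.77 and 0.72, 2.09% of genes called), and neither was called without any one cKO library of the arm with none, or without cKO replicate 2 or 3 of the control arm. Other values moved with the control arm. Lyz2 was at 23000 to 23400 CPM in WT with control antibody and at 5280 to 11400 with none. The 10 stromal markers summed to 106 to 384 CPM in WT and 304 to 613 in cKO with control antibody, against 47.2 to 165 and 78.0 to 135 with none. Their part in the differences between the arms was not tested. Ctsl shares exonic bases with an antisense gene and a pseudogene, and Ctsd with a gene on the same strand, so their counts leave those reads out.

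**Figure D3:**
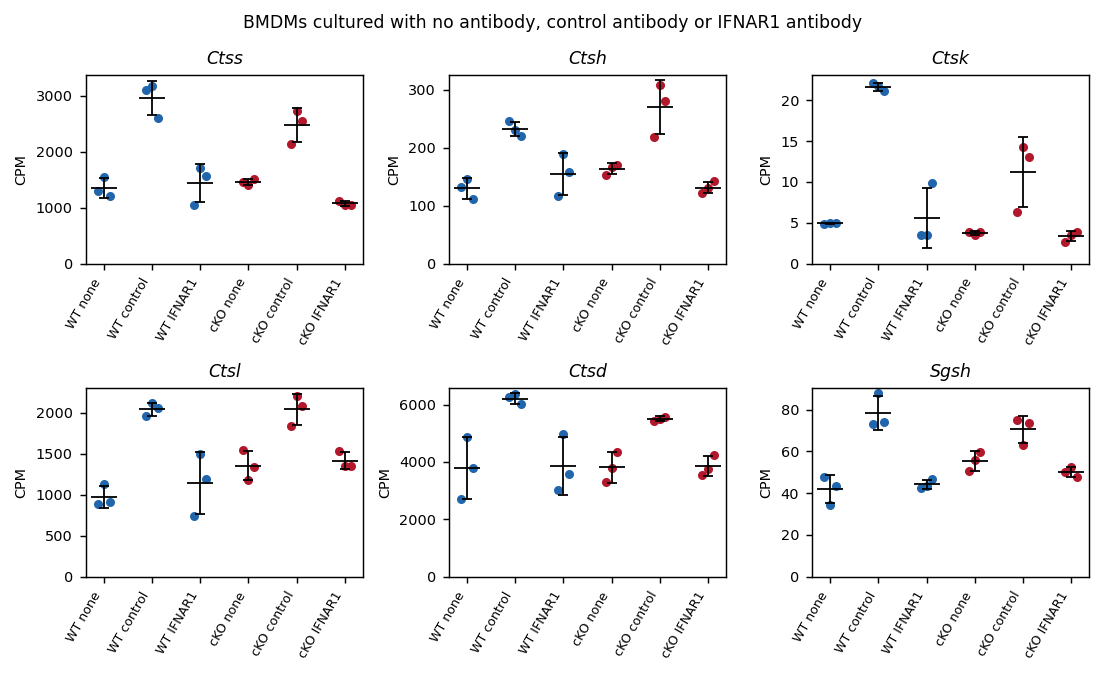
CPM (vertical axes, one panel per gene) of 6 cathepsin and sulfatase members in each WT and cKO library of the 3 arms (none, control, IFNAR1), with bars for the mean ± SD. In WT the control arm is the high one for each gene, for example 21.1 to 22.1 CPM of Ctsk against 4.85 to 4.99 with none and 3.45 to 9.85 with IFNAR1 antibody.

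In the 3 sets sequenced with the double knockouts, more members differed between cKO and WT than elsewhere, as did genes in general. In set 1, 7 members were higher and 8 lower (34.6% of 18083 genes called), in set 2, 3 and 16 (21.9%), and in set 3, 8 and 11 (35.9%). Ctsc and Ctsh were called higher in all 3 sets, as were 4.6% of all genes. Ctsc was at 341, 268 and 240 CPM in WT and 483, 471 and 480 in cKO of set 1 (log2 0.76 ± 0.11, adjusted p = 1.31e-05), and its log2 difference was 0.59 in set 2 and 0.60 in set 3. Ctsh was at 83.1, 88.6 and 74.5 CPM in WT and 203, 193 and 185 in cKO of set 2 (log2 1.24 ± 0.18, adjusted p = 1.23e-05), with 0.77 and 0.84 in sets 1 and 3. Every cKO library was above every WT library of its set for both genes.

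Ctsb, Ctsf, Hexa, Asah1, Cd63 and Mitf were called lower in all 3 sets, as were 4.19% of all genes. Ctsf was at 18.9, 10.2 and 18.3 CPM in WT and 3.90, 4.93 and 5.13 in cKO of set 1 (log2 -1.75 ± 0.28, adjusted p = 3.4e-05), with log2 differences of -0.92 and -2.02 in sets 2 and 3. Asah1 was at 373, 346 and 358 CPM in WT and 242, 250 and 253 in cKO of set 3 (log2 -0.53 ± 0.07, adjusted p = 3.82e-06). Hexa, the hexosaminidase subunit lost in Tay-Sachs disease, was lower by 0.44 to 0.55 in log2, and Ctsb, one of the most abundant proteases here, by 0.33 to 0.42. The tetraspanin Cd63 was at 441, 418 and 398 CPM in WT and 200, 251 and 193 in cKO of set 2 (log2 -0.97 ± 0.15, adjusted p = 2.38e-05). No library of cKO reached a WT library of the same set for any of these genes. Without cKO replicate 3, 10 members were called in set 2, and without WT replicate 1, 11 in set 3.

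Set 2 differed from the other sets. Ctsz was higher in cKO in sets 1 and 3 (log2 0.40 and 0.36) and lower in set 2 (log2 -0.37, adjusted p = 0.0258). Ctsk (log2 -2.16 ± 0.37), Cd68 (-0.63), Ctsa (-0.52), Gusb (-0.45), Npc2 (-0.45), Ctsd (-0.39) and Npc1 (-0.33) were called lower in set 2 alone, and Grn, Ctss, Ppt1 and Lipa higher in sets 1 and 3 but not in set 2. These differences between sets were not tested. WT levels also differed by set, with Ctsl at 1923 to 1989 CPM in set 2 and 622 to 910 in sets 1 and 3, and Lipa at 2028 to 2116 against 1016 to 1230. Tpp1, Gla, Glb1, Neu1, Man2b1, Naglu, Gaa, Psap, Lamp2, Laptm5, Cln3 and Mcoln1 were called in no set. The neutrophil markers summed to 313 to 386 CPM in cKO and 113 to 171 in WT of set 1, 289 to 428 and 109 to 174 in set 3, and 201 to 224 and 141 to 223 in set 2. Dendritic cell markers summed to 15.9 to 21.5 CPM in cKO and 5.28 to 8.88 in WT of set 1. The part of either in these results was not tested.

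**Figure D4:**
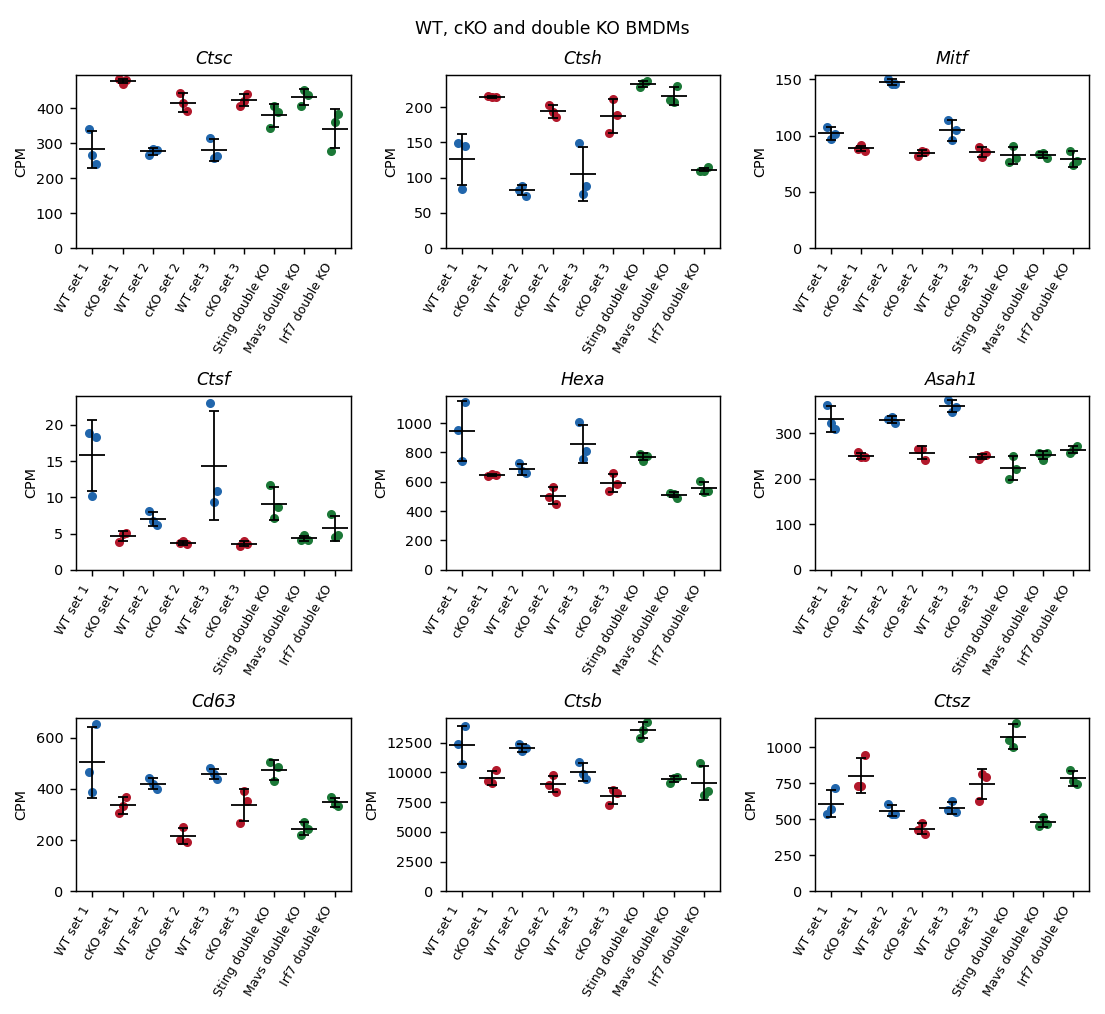
CPM (vertical axes, one panel per gene) of 9 members in each library of WT and cKO sets 1 to 3 and of the Sting, Mavs and Irf7 double knockouts, with bars for the mean ± SD. Ctsc and Ctsh lie above WT in cKO of each set, Ctsf, Hexa, Asah1 and Mitf below, and Ctsz above in sets 1 and 3 and below in set 2.

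Among the MiT/TFE factors themselves, Mitf was lower in cKO of all 3 sets. In set 2 it was at 150, 146 and 146 CPM in WT and 81.6, 86.5 and 85.3 in cKO (log2 -0.81 ± 0.07, adjusted p = 2.28e-08), and the difference was -0.20 in set 1 and -0.29 in set 3. The call of Mitf in set 1 was lost under 7 of 11 alternatives (adjusted p from 0.0319 to 0.179 over the 11) and that in set 3 under 2 of 11. Tfe3 was lower in sets 2 and 3 (log2 -0.23 in both), and Tfeb in set 3 (log2 -0.38, adjusted p = 0.027). None of the 3 was called in the other 6 comparisons of cKO with WT among the 9. Transcript levels do not measure how much of these proteins is in the nucleus.

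The labels do not say which set was grown with which double knockout, so each double knockout was compared with the mean of the 3 cKO sets and then with each set. In the Sting double knockout 27 members were higher and 2, Lipa and Asah1, lower than the cKO mean, where 36.4% of genes were called, 19.1% higher and 17.2% lower. The median log2 difference was 0.41 over the 39 members and 0.02 over all genes. The summed CPM of the members was 48527 to 53730 in the Sting double knockout, 30560 to 42113 in the cKO sets and 32515 to 45585 in WT, with no overlap. Against set 1, 17 members were called (22.6% of genes), against set 2, 31 (34.6%), and against set 3, 27 (32.5%). The 16 members higher than each of the 3 sets were Cd63, Ctsb, Ctsd, Ctsf, Ctsz, Gaa, Gla, Glb1, Grn, Mcoln1, Naglu, Neu1, Npc2, Psap, Sgsh and Smpd1, where 6.17% of all genes were called higher than each of the 3.

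Psap, the precursor of the saposins that help degrade sphingolipids, was at 10010, 9376 and 10730 CPM in the Sting double knockout and at 5143 to 6493 in the 9 cKO libraries (log2 0.81 ± 0.15, adjusted p = 0.000155). Ctsz was at 1050, 1001 and 1167 CPM against 401 to 945 (log2 0.75 ± 0.09, adjusted p = 2.5e-06), and Sgsh at 108, 104 and 106 against 47.2 to 83.1 (log2 0.75 ± 0.10, adjusted p = 3.81e-06). Grn was at 3912, 4130 and 4436 CPM against 2189 to 3744 (log2 0.60 ± 0.09, adjusted p = 1.65e-05). Smpd1, the acid sphingomyelinase, was at 50.4, 51.4 and 53.8 CPM against 28.0 to 44.5, and Gaa at 174, 176 and 192 against 97.8 to 156. In each of these 6 genes the Sting libraries were above all 9 cKO libraries. Ctsb was at 12900, 13590 and 14260 CPM, where WT was at 9411 to 13900 and cKO at 7235 to 10200. Ctsc and Ctsh were not called against the cKO mean, and Mitf, at 76.5, 90.8 and 80.4 CPM, was not called against any set. Of the other MiT/TFE factors, Tfeb was among the members called higher than the cKO mean. Tfeb and Tfe3 were each called higher against 1 set. Stromal markers summed to 244 to 291 CPM in the Sting double knockout and 45.6 to 116 in the cKO sets. Their part in these results was not tested, and Sting loss, the line's background and its culture cannot be told apart.

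**Figure D5:**
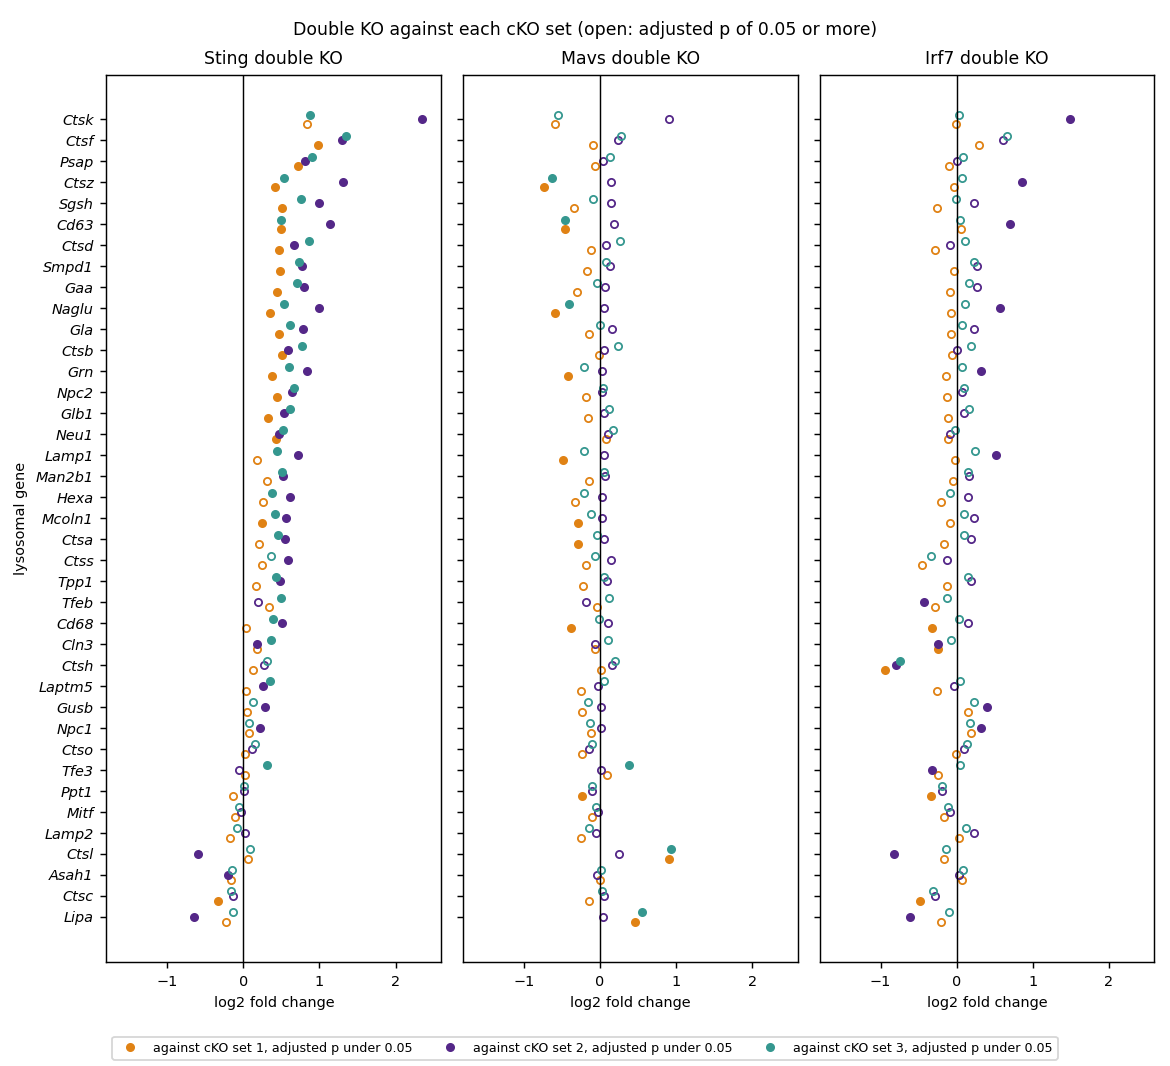
Log2 fold change of each member (vertical axis) in the Sting, Mavs and Irf7 double knockouts against cKO set 1, 2 or 3 (markers), filled where called. In the Sting panel 16 members are called higher against all 3 sets, and in the Irf7 panel Ctsh is the one member called lower against all 3.

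The Mavs double knockout had 2 members higher, Ctsl and Lipa, and 2 lower, Ctsz and Naglu, than the cKO mean (9.32% of genes called). Against set 1, 11 members were called (13.4% of genes), against set 3, 6 (19.1%), and against set 2, 0 (0.874%). The log2 difference of Ctsl was 0.90 and 0.93 against sets 1 and 3 and 0.25 against set 2, with 1865, 1767 and 2026 CPM in the double knockout and 1636, 1383 and 1751 in cKO set 2. Lipa differed by 0.45, 0.04 and 0.55 from sets 1, 2 and 3. Ctsz and Naglu turned from -0.74 and -0.59 against set 1 to 0.15 and 0.05 against set 2. None of the 4 differed from set 2 by the test (adjusted p = 1 for each). Without replicate 1 or 3 of the double knockout, 2 members were called against the mean.

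In the Irf7 double knockout 3 members were higher, Npc1, Ctsz and Lamp1, and 5 lower, Ctsh, Lipa, Ctsc, Ppt1 and Cln3, than the cKO mean (10.6% of genes called). Against set 1, 5 members were called (8.53% of genes), against set 2, 14 (20.8%), and against set 3, 1 (1.23%). Ctsh was called lower than each set, as were 0.371% of all genes, at 110, 110 and 115 CPM in the double knockout, 163 to 216 in the 9 cKO libraries and 74.5 to 149 in WT (log2 -0.83 ± 0.15, adjusted p = 0.000798). Its log2 difference was -0.94, -0.80 and -0.75 against sets 1, 2 and 3. Ctsc was at 279, 361 and 385 CPM, below all cKO libraries (392 to 483), with a log2 difference of -0.36 ± 0.09 from the mean (adjusted p = 0.014), and was called against set 1 alone. Neutrophil markers summed to 164 to 171 CPM in the Irf7 double knockout and 201 to 428 in the cKO sets, and their part was not tested. Without any one Irf7 library 3 or 4 members were called, and without replicate 1 of any cKO set or replicate 3 of set 2, 5. H3f3b was also lower in the Irf7 double knockout, at 71.9 to 147 CPM against 187 to 220 in the cKO sets, and its part was not tested. For the Mavs and Irf7 lines too, loss of the gene, the line's background and its culture cannot be told apart. The 3 double knockouts share the same cKO libraries as reference.

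Genes that work with the members were counted in the same fits. They were 96 further lysosomal genes: 16 V-ATPase subunits, which pump the protons, 23 other hydrolases, 18 other membrane proteins, 17 genes of delivery to the lysosome, 16 of nutrient sensing on its surface and 6 cathepsin inhibitors. On day 3, 2 of 23 hydrolases, 1 of 18 membrane proteins and 0 of 16 V-ATPase subunits were called, beside 8.65% of all genes. Rragd, a Rag GTPase of mTORC1 recruitment, was at 30.1 CPM in cKO and 5.36 in WT on day 3 (log2 2.50 ± 0.38, adjusted p = 0.000778), and Igf2r, the mannose 6-phosphate receptor that delivers hydrolases, at 219 and 585 (log2 -1.42 ± 0.20, adjusted p = 0.000456). The neutrophil-type cathepsin inhibitors Stfa1 and Stfa2 were higher in cKO on day 3, Stfa1 at 8.49 CPM against 0.367.

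In WT after IFNg, 6 V-ATPase subunits rose and 2 fell, 7 hydrolases rose and 1 fell, and 7 membrane proteins rose and 2 fell, where 38.9% of all genes were called, 19.5% higher and 19.3% lower. The acid amidase Naaa went from 21.3 to 193 CPM (log2 3.18 ± 0.22, adjusted p = 4.06e-06), and Rptor, the mTORC1 scaffold, from 82.4 to 40.6. In set 2, 12 of 16 V-ATPase subunits were lower in cKO and 0 higher, where 21.9% of all genes were called and 11.8% were lower. In sets 1 and 3, 4 and 5 were lower and 1 and 2 higher, where 34.6% and 35.9% of all genes were called. In the Sting double knockout 13 of 23 hydrolases were higher and 0 lower, 7 V-ATPase subunits were higher and 1 lower, and 9 membrane proteins higher and 1 lower, where 36.4% of all genes were called, 19.1% higher and 17.2% lower. Flcn, which acts on the Rag GTPases, was at 121 CPM there and 73.3 in the cKO mean (log2 0.73 ± 0.06, adjusted p = 2.2e-08), and Rragd at 30.3 and 15.1 (log2 1.06 ± 0.11). Hgsnat, the membrane acetyltransferase of heparan sulfate breakdown, was at 1071 CPM in cKO and 152 in WT without antibody (log2 2.82 ± 0.20), and at 1198 and 2241 in peritoneal macrophages (log2 -0.90 ± 0.16, adjusted p = 0.0402), where Galns was higher in cKO (log2 0.73 ± 0.13).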

How the data were processed

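RNA-seq libraries of BMDMs (rRNA-depleted, NEBNext Ultra II) and peritoneal macrophages (SMART-Seq v4) were read as deposited. The authors trimmed reads with Cutadapt and aligned them with STAR to mm10, per the processing notes and the study's methods, and deposited the raw read counts per gene that STAR gives (versions not given in the sources used here). Column 2, which ignores strand, was used. Unmapped, multimapping, no-feature and ambiguous rows were left out, and their median shares by experiment were 1.76 to 16.1%, 6.37 to 12.5%, 4.78 to 25.0% and 4.26 to 6.01%. Reads at exons shared with another gene are not counted for either.

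Counts were analysed with edgeR 4.0.16 in R 4.3.3 (filterByExpr, TMM, quasi-likelihood test), with 1 model per experiment over all its groups, and Benjamini-Hochberg adjustment over all genes tested at 0.05. CPM are TMM-scaled. DESeq2 1.42.0, RLE scaling, no filter, a replicate block, only the groups compared and leaving out each library were alternatives. Simulated data with known changes (dispersion 0.02 for every gene) gave back 74.2 to 85.4% of 2-fold and 25.5 to 51% of 1.5-fold changes. Of the simulated calls, 0.877 to 6.62% were false. The simulation had no outlying library, and some groups spread more, as Psap did in WT on day 7 (mean 6396 CPM, SD 3436). The shares given back therefore do not describe such groups. Replicates are biological by label and no pair agreed within sampling noise (chi-square per degree of freedom 3.33 to 292 over 77 pairs).

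Same-numbered libraries deviated together (3 correlations over 0.1) on day 3 (0.126 to 0.419), on day 7, between days in cKO, for IFNg in WT, in peritoneal macrophages (0.144 to 0.194) and for control against no antibody in WT, so the numbers may pair the libraries there. Values given are from the model without the block, and the blocked value is given where it changes a call or a count. In the other comparisons the correlations did not all pass 0.1, or there were under 3 pairs, so pairing was neither shown nor excluded. Day 7 against day 3 in WT (0.092 to 0.396) and IFNAR1 against control antibody in cKO (0.091 to 0.14) were near that cut.

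The members and gene lists were chosen with earlier results of these data known. Members named are those called, with a few picked after their values were seen, and at most 2 genes per direction of each further list. The comparisons of control with no antibody and the interferon elements were added after seeing the data. The 2 libraries with contradicting labels entered no comparison.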

Additional observations from a re-analysis of the deposited data

Results flagged for a closer look

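A cKO library whose title says untreated while its library name says IFNg was left out of all comparisons. The check covered the 3 members with the smallest adjusted p among those called higher with IFNg in WT, and no others. For each of the 3, this library lay above every untreated library. The CPM given here come from a scaling that includes both unplaced libraries, so they differ slightly from those above. Ctsc was at 1630 CPM, where untreated libraries had 209 to 241 in WT and 260 to 263 in cKO. Ctsh was at 575.6 CPM, where they had 89.3 to 106 and 117 to 135. Ppt1 was at 309.7 CPM, where they had 106 to 116 and 114 to 119. Sgsh was at 5.57 CPM in the same library. The library titled IFNg and named untreated had 223 CPM of Ctsc, 118 of Ctsh, 110 of Ppt1 and 51.2 of Sgsh. Which label is right cannot be told from the labels, and neither library was moved.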

How the results depend on the processing

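Of 2286 member calls recomputed under an alternative, 1855 kept their side of the threshold and 4 changed sign. Against cKO set 2 alone, Ctsz and Naglu in the Mavs double knockout became 0.146 and 0.053 in log2, and against cKO set 1 alone, Ctsz and Lamp1 in the Irf7 double knockout became -0.034 and -0.025. Numbers of members called by cKO against WT on days 3, 5 and 7 were 7, 0 and 0. DESeq2 gave 1 on day 5, 4 on day 7, 8 between days in cKO (main 5), 3 for the difference over days (0), 11 between genotypes with IFNg (3), 1 in peritoneal macrophages (0) and 5 without antibody (2). Fitting only the groups compared gave 13 on day 3, 1 on day 5, 3 between days in WT (14), 12 between days in cKO, 1 on day 8 untreated (0), 0 between genotypes with IFNg, 24 for IFNg in WT (15), 2 for IFNg in cKO (15), 1 without antibody, 19 with control antibody (1), 0 and 2 for IFNAR1 against control in WT and cKO (6 and 4), 14 for control against none in cKO (2), 7 and 9 in sets 1 and 3 (15 and 19), and 7 and 13 for the Mavs and Irf7 double knockouts (4 and 8). The cause of these moves was not tested. RLE scaling gave 1 without antibody and 0 with control antibody. No filter gave 6 between genotypes with IFNg, 1 in peritoneal macrophages and 0 with control antibody. Against single sets, the Sting double knockout gave 17 (set 1, main 29), the Mavs 11 and 0 (sets 1 and 2), and the Irf7 5, 14 and 1 (sets 1, 2 and 3). Placing the 2 contradicting libraries by titles gave 0 for IFNg in cKO and 0 between genotypes with IFNg.

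With the replicate block the count was 11 on day 3, 1 on day 5, 1 for the difference over days, 0 between genotypes with IFNg and 2 with control antibody. Where the numbers may pair the libraries, the block changed no other count by over 1.5 times, and ended the call of Tfeb for IFNg in WT.

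Leaving out 1 library gave 1 to 4 calls on day 3, 0 to 0 on day 5, 0 to 4 on day 7, 10 to 16 between days in WT, 2 to 8 in cKO and 0 to 2 for their difference. It gave 0 to 0 on day 8 untreated, 0 to 21 between genotypes with IFNg, 10 to 13 for IFNg in WT, 7 to 25 in cKO and 0 to 19 for their difference. It gave 0 to 0 in peritoneal macrophages, 0 to 8 without antibody, 0 to 0 with control and 0 to 1 with IFNAR1 antibody, 3 to 16 and 2 to 3 for IFNAR1 against control in WT and cKO, 0 to 0 for their difference, and 4 to 6 and 0 to 3 for control against none. It gave 10 to 17, 10 to 18 and 11 to 17 in sets 1, 2 and 3, and 25 to 30, 2 to 4 and 3 to 10 for the Sting, Mavs and Irf7 double knockouts. The cKO groups of day 8 hold 2 libraries, so a lone library there is assumed to vary like the other groups. The strand columns were not run as an alternative, since they split reads evenly.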
